A study of Mus musculus with 7 samples.

Results

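The 30 genes described here encode scaffolds, kinases and signalling proteins of the postsynaptic density, without receptors. They were chosen by name, with earlier results of these data known. Each was represented by the brightest probe set that carried its symbol alone. All 30 were on the array and all 30 were among the 16144 genes tested. Expression was measured in whole neocortex of C57BL/6 mice on 7 arrays, 1 per sample. In the labels, 4 samples were CKO, with COUP-TFI and Nex-Cre in their genotype, and 3 were wild type (WT). COUP-TFI, the product of Nr2f1, is a nuclear receptor known for its role in the areal map of the neocortex. Nex-Cre drives recombination from the Neurod6 locus in postmitotic glutamatergic neurons, so other cells of the tissue are not its target. The labels do not state the age, whether WT samples carried Cre, or whether each array came from its own animal. The p-values therefore measure only how these samples vary, and some of that may be technical. Each array takes its name from its group and its label's number: CKO 1, 4, 34 and 43 and WT 6, 27 and 38.

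The postsynaptic density is the protein mesh under the membrane of an excitatory synapse. Its MAGUK proteins, such as PSD-95, hold glutamate receptors and bind SAPAP proteins (Dlgap genes), which bind Shank proteins, which bind Homer proteins. Calcium that enters through the receptors binds calmodulin and switches on the CaMKII kinase and the phosphatase calcineurin, whose balance sets synaptic strength. Other members act on the actin of dendritic spines. Expression of many of these genes rises as cortical neurons mature and form synapses.

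Values are log2 signals, and differences are CKO minus WT. A difference of a log2 value is a ratio of signals, and a single probe set cannot tell isoforms apart. In whole tissue, fewer cells of a type and less RNA per cell cannot be told apart. The cortical neuron gene Neurod2 lay between 13.06 and 13.21 on the 7 arrays. Tbr1, a transcription factor of glutamatergic neurons, was higher on every CKO array than on any WT array, with a difference of 0.14 (SE 0.057, limma p 0.0346, adjusted p 0.726). Neurod6, the locus of Nex-Cre, went the other way and was lower on every CKO array than on any WT array. Its difference was -0.20 (SE 0.057, limma p 0.00814, adjusted p 0.711). Nr2f1 lay lower in CKO, with 10.68 ± 0.084 (SD, n = 4) against 11.04 ± 0.143 (SD, n = 3). Its difference of -0.36 did not pass the adjustment (limma adjusted p 0.435), and whether its probe set lies in the deleted part is not known here. WT 38 stood apart from the other arrays, so the comparison was repeated without it.

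Promoter sequence was at hand for 23 of the 30 members, with 38 windows of 300 bases in RefSeq's annotation of GRCm38.p6. The 7 members without a window, Camk2a, Camk2g, Camk4, Dlgap2, Ppp3ca, Shank1 and Shank2, were not searched. Nuclear receptors of the COUP-TF type bind repeats of the letters AGGTCA, and these letters were searched on both strands. They occurred in 5 of the 38 member windows (13.2%) and in 16.3% of all 32851 windows. The 5 windows belonged to 4 members, Dlgap1 (both of its windows), Dlg4, Homer1 and Homer3. Member windows had a median GC content of 61.7%, against 52.7% over all windows. The first 250 bases of 4 windows follow, 5′ to 3′ along the gene, with AGGTCA or its complement in capitals. Camk2b and Dlg2 (its most upstream start) are shown because they had the largest differences among the members, and Dlgap1 because both of its windows held the letters.
Dlg2, chr7:91090536-91090785, plus strand: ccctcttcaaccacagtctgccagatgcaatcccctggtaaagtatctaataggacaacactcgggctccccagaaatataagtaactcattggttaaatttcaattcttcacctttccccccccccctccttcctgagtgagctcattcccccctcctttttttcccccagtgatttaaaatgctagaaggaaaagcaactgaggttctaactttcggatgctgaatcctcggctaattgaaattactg
Camk2b, chr11:6065749-6065998, minus strand: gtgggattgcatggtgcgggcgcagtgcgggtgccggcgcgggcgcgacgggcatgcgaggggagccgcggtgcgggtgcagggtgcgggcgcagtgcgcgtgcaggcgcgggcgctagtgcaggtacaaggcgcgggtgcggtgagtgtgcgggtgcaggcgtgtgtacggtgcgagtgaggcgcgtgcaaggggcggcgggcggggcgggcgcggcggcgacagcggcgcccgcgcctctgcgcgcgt
Dlgap1, chr17:69968823-69969072, plus strand: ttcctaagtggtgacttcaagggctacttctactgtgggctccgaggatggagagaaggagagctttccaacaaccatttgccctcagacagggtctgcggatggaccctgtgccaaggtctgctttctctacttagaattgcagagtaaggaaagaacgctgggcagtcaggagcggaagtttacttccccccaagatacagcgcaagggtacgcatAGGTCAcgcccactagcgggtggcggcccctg
Dlgap1, chr17:70561497-70561746, plus strand: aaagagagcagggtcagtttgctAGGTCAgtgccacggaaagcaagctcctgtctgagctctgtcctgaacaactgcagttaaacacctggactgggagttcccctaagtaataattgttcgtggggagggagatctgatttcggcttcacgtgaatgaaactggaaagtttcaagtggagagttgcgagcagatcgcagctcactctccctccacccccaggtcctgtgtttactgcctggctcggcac
The windows differed widely in composition. That of Camk2b had a GC content of 77.3% and 51 CpG dinucleotides in 300 bases, and that of Dlg2 had 44.7% and 3. Neither held AGGTCA, which says only that these letters are not in these windows.

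No member passed an adjusted p of 0.05 over all genes with limma, where 0.0248% of genes passed, and the smallest adjusted p among the members was 0.711. Camk2b, Camk4 and Dlg2 lay lower in every CKO array than in any WT array. These were 3 of 30 members (10%), where 2.99% of all genes had that pattern. No member lay wholly higher in CKO, where 5.39% of genes did. The same 3 members had an unadjusted p under 0.05, where 6.79% of all genes did, 2.61% lower and 4.17% higher. In all, 16 members had a negative difference (53.3%, against 41.1% of all genes) and 14 a positive one. The median difference was -0.0060, against 0.014 over all genes. For 21 members the difference was smaller than 0.1 in size, and for 28 smaller than 0.2. The 95% interval held 0 for 27 members.

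**Figure D1:**
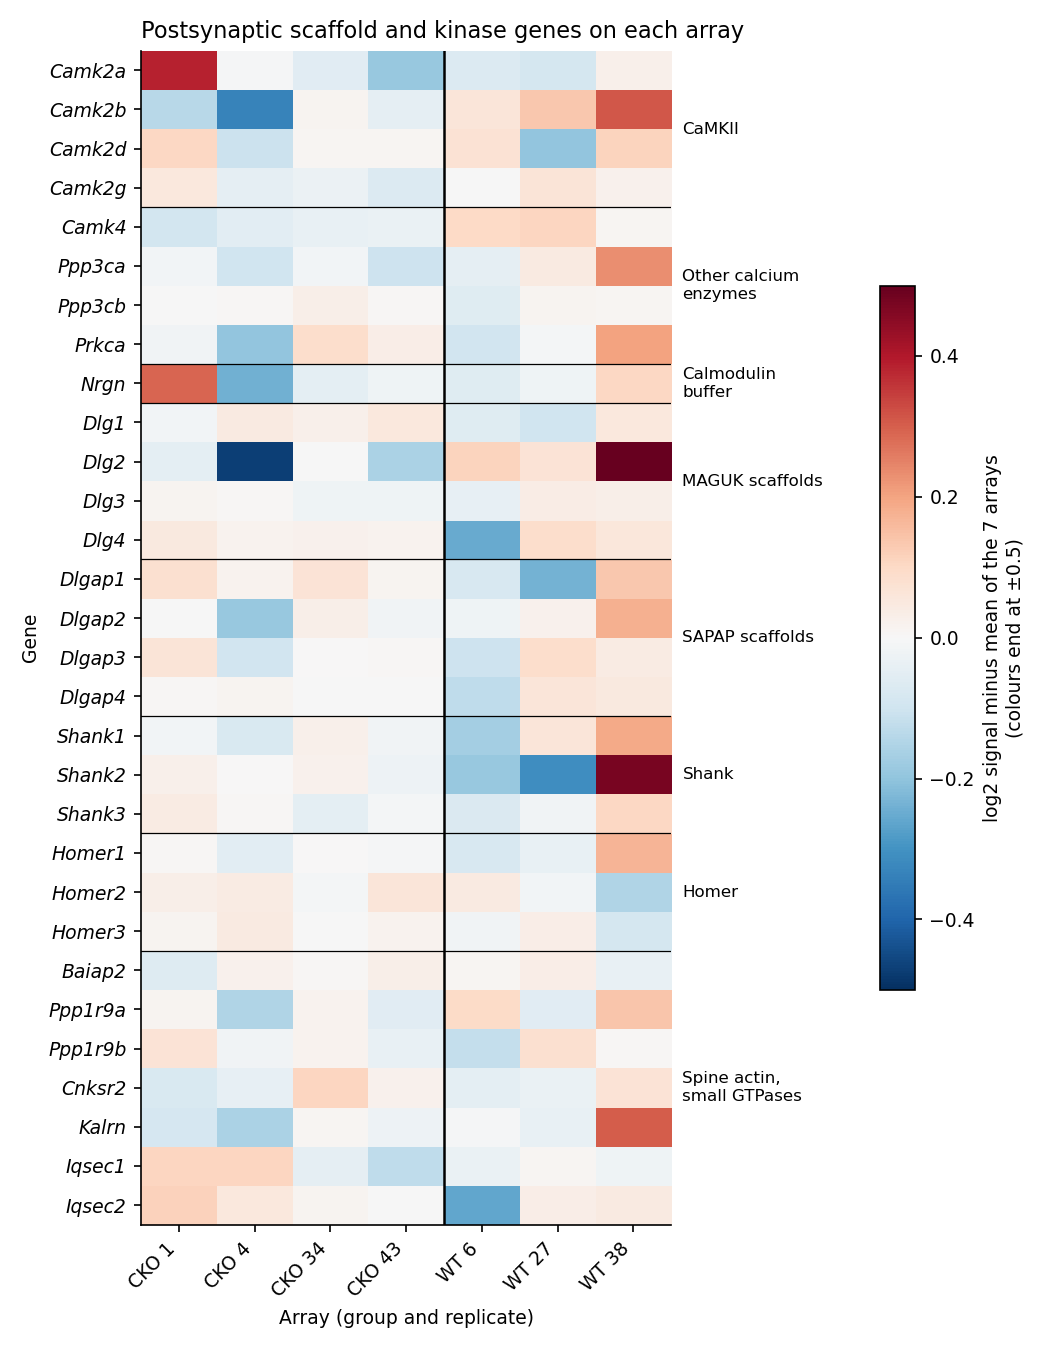
Log2 signal of each of the 30 genes (rows, grouped by role) on each of the 7 arrays (columns), as the difference from the gene's mean over the arrays; a vertical line parts CKO from WT. The column of WT 38 is mostly above the mean, with the highest value for 14 genes, and the rows of Camk2b, Camk4 and Dlg2 are lower on all 4 CKO arrays than on the 3 WT arrays.

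Among the CaMKII subunits, the beta subunit lay lower on every CKO array and the 3 others had overlapping groups. Camk2b (probe set 10384064) encodes the subunit that also binds and bundles actin. Its signal was 11.89 on CKO 1, 11.69 on CKO 4, 12.04 on CKO 34 and 11.98 on CKO 43, and 12.08 on WT 6, 12.16 on WT 27 and 12.34 on WT 38. The groups did not overlap, but CKO 34 and WT 6 were close, and CKO 4 was the lowest and WT 38 the highest array. CKO averaged 11.90 ± 0.153 (SD, n = 4) and WT 12.19 ± 0.130 (SD, n = 3). The CKO signal was 0.816 of the WT signal, which is -0.29 on the log2 scale (SE 0.092, limma p 0.0119, adjusted p 0.711). Without WT 38 it was -0.22, with an unadjusted p of 0.0522 from limma. Within array lot 2 (CKO 34, CKO 43, WT 27 and WT 38, whose array identifiers share a stretch), it was -0.24.

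Camk2a (probe set 10456021), the alpha subunit, which is abundant at mature forebrain synapses, was set apart by 1 array. CKO 1 was at 9.83, while CKO 4, 34 and 43 were at 9.44, 9.39 and 9.25 and WT 6, 27 and 38 at 9.38, 9.36 and 9.47. The 3 other CKO arrays thus lay in and around the WT range. The difference was 0.08 (SE 0.120), and it turned to -0.04 without CKO 1. Camk2g (-0.05, SE 0.042) and Camk2d (0.0079, SE 0.082), the widely expressed gamma and delta subunits, had overlapping groups. The interval of Camk2g ran from -0.15 to 0.05 and that of Camk2d from -0.18 to 0.20, so a decrease of the size measured for Camk2b lay outside both.

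Camk4 (probe set 10454632) encodes CaMKIV, a nuclear calmodulin kinase that phosphorylates CREB. Its signal was 9.01, 9.05, 9.07 and 9.07 on CKO 1, 4, 34 and 43, and 9.20, 9.21 and 9.11 on WT 6, 27 and 38. The CKO arrays lay close together and below all WT arrays, and here WT 38 was the WT array nearest to them. CKO had 0.916 of the WT signal, which is -0.13 on the log2 scale (SE 0.041, limma p 0.0139, adjusted p 0.711). It widened to -0.16 without WT 38 (limma p 0.00319, adjusted p 0.279) and was -0.09 within lot 2. Camk4 was the 1 member lower at an unadjusted p under 0.05 both with and without WT 38. With array lot as a fixed block its limma p was 0.116 and that of Dlg2 was 0.11, while that of Camk2b was 0.0416.

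Both calcineurin catalytic subunits among the members had overlapping groups. Ppp3ca (probe set 10496338), the alpha subunit, was at 11.84, 11.76, 11.84 and 11.75 on CKO 1, 4, 34 and 43 and at 11.81, 11.90 and 12.09 on WT 6, 27 and 38. WT 6 lay inside the CKO range and WT 38 was the highest array, so the groups overlapped. The difference was -0.14 (SE 0.067) and -0.06 without WT 38. It was -0.20 without WT 6 (limma p 0.0176) and -0.20 with array lot as a fixed block (limma p 0.0478). Ppp3cc, the gamma subunit, which is no member and was named after its value was seen, had -0.13 (SE 0.067, limma p 0.0943) and -0.19 without WT 38 (limma p 0.0202, adjusted p 0.381). Ppp3cb, the beta subunit, had a difference of 0.02 (SE 0.037) with an interval from -0.06 to 0.11, the smallest error among the members. Prkca, the calcium-dependent protein kinase C alpha, had a difference of -0.06 (SE 0.087) that turned to 0.03 without WT 38.

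Nrgn (probe set 10592330) encodes neurogranin, which holds calmodulin at low calcium. It was spread within CKO more than between groups. CKO 1 was at 9.43 and CKO 4 at 8.90, the highest and lowest of the 7 arrays, while CKO 34 was at 9.09, CKO 43 at 9.12 and WT 6, 27 and 38 at 9.08, 9.12 and 9.25. The difference was -0.01 (SE 0.112), with an interval from -0.27 to 0.24, so only large shifts lay outside it. CKO 1 was thus the highest array for both Camk2a and Nrgn.

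**Figure D2:**
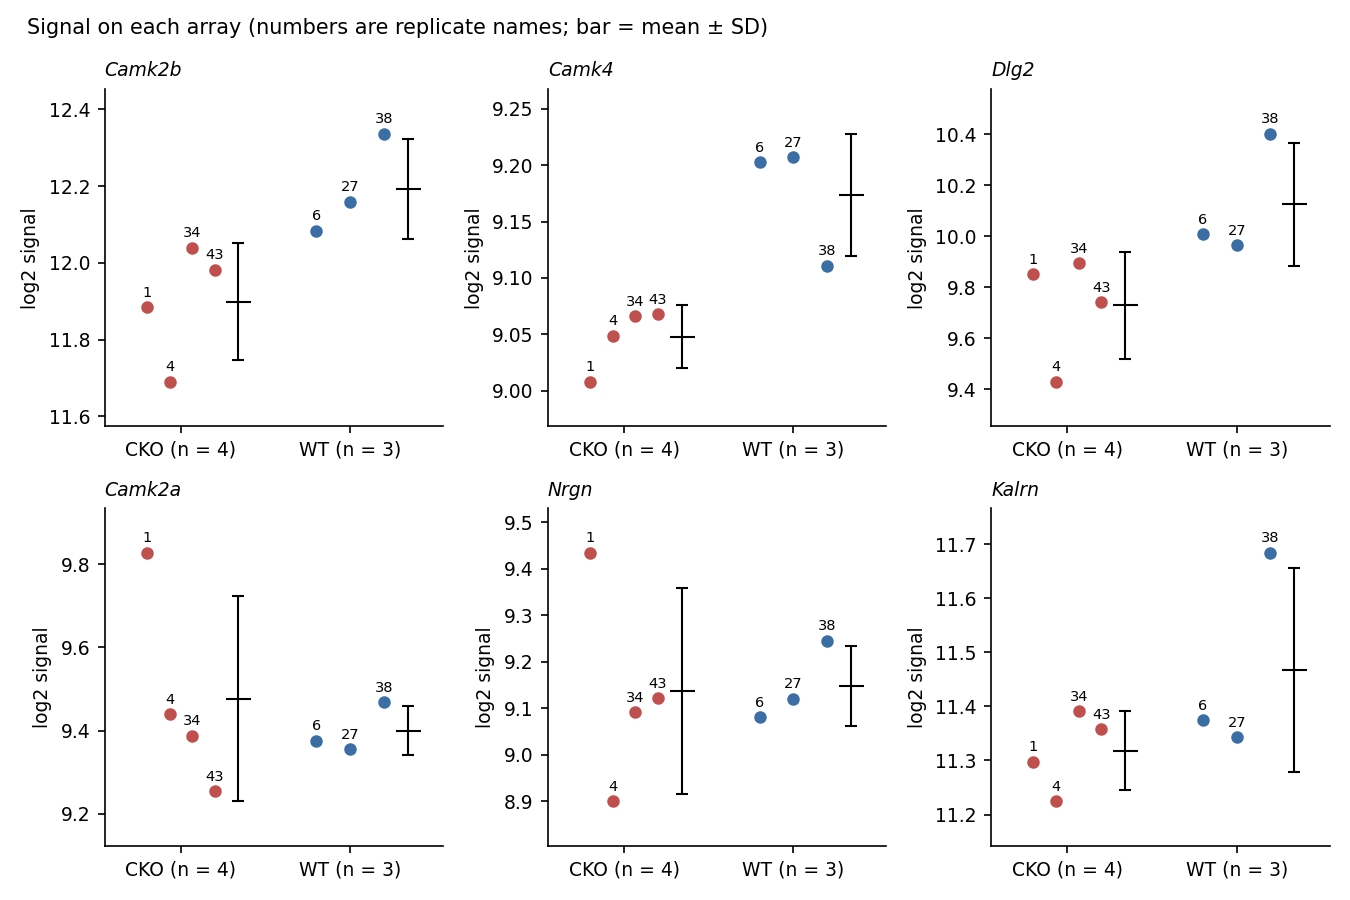
Log2 signal on each array (points, with the replicate's number) and mean ± SD by group for 6 genes. Camk2b, Camk4 and Dlg2 show no overlap between CKO and WT; Camk2a and Nrgn show CKO 1 above the other arrays, and Kalrn shows WT 38 above the other arrays.

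The MAGUK scaffolds did not share a direction, with 2 differences negative and 2 positive. Dlg2 (probe set 10554900), which encodes PSD-93, had the most negative difference of the 30 members. Its signal was 9.85 on CKO 1, 9.43 on CKO 4, 9.90 on CKO 34 and 9.74 on CKO 43, and 10.01 on WT 6, 9.97 on WT 27 and 10.40 on WT 38. The groups did not overlap, and the extremes were again CKO 4 and WT 38. The means were 9.73 ± 0.210 (SD, n = 4) and 10.13 ± 0.241 (SD, n = 3). CKO had 0.760 of the WT signal, which is -0.40 on the log2 scale (SE 0.136, limma p 0.0189, adjusted p 0.711). It was -0.26 without WT 38 (limma p 0.0783), -0.30 without CKO 4 and -0.37 within lot 2.

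Dlg1 (probe set 10434942), which encodes SAP97, pointed the other way. It was at 11.09, 11.15, 11.13 and 11.15 on CKO 1, 4, 34 and 43 and at 11.04, 11.00 and 11.15 on WT 6, 27 and 38. WT 38 was the highest array, level with CKO 43 to 2 decimals, and the 2 other WT arrays lay below all CKO arrays. The difference was 0.06 (SE 0.046), and 0.11 without WT 38 (limma p 0.0226, adjusted p 0.387). Dlg4, which encodes PSD-95, the main scaffold of mature excitatory synapses, was at 12.13 to 12.16 on the CKO arrays and at 11.86, 12.20 and 12.17 on WT 6, 27 and 38. Its difference of 0.06 (SE 0.078) was -0.05 without WT 6 and 0.11 without WT 38. Dlg3, which encodes SAP102, a MAGUK of young synapses, had a difference of -0.01 (SE 0.037) with an interval from -0.10 to 0.07.

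Of the SAPAP genes, Dlgap1 and Dlgap2 had differences of opposite sign, and Dlgap3 and Dlgap4 were near 0. Dlgap1 (probe set 10446592) was at 10.84, 10.78, 10.82 and 10.77 on CKO 1, 4, 34 and 43 and at 10.68, 10.52 and 10.89 on WT 6, 27 and 38. The CKO arrays lay between WT 38 above and the 2 other WT arrays below. The difference was 0.11 (SE 0.079), and 0.20 without WT 38 (limma p 0.00659, adjusted p 0.317). A second probe set of Dlgap1, 10446596, did not repeat it, with -0.07 over all arrays and -0.04 without WT 38. Dlgap2 was lower by a difference of -0.10 (SE 0.068), and -0.04 without WT 38. Dlgap3 had -0.01 (SE 0.058), and Dlgap4 had 0.01 (SE 0.051), with intervals inside -0.15 to 0.13.

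Shank2 varied more between WT arrays than any other member. Shank genes encode the large scaffolds that link SAPAP to Homer and actin. The brightest Shank2 probe set, 10559341, was at 9.78, 9.75, 9.77 and 9.73 on CKO 1, 4, 34 and 43, a spread of 0.0227 (SD, n = 4). It was at 9.56 on WT 6, 9.44 on WT 27 and 10.23 on WT 38, a spread of 0.423 (SD, n = 3). All CKO arrays lay above WT 6 and WT 27 and far below WT 38. The difference was 0.01 (SE 0.162) over all arrays. Without WT 38 it was 0.26, with the smallest p of any member in that comparison (limma p 0.00078), which did not pass the adjustment (adjusted p 0.266).

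The 2 other Shank2 probe sets gave different values. Probe set 10559343 was at 9.37, 9.06, 9.40 and 9.24 on CKO 1, 4, 34 and 43 and at 9.32, 9.56 and 9.50 on WT 6, 27 and 38. Here WT 27 was the highest array and the difference was -0.19, or -0.17 without WT 38. Probe set 10559333 lay between 8.64 and 8.73 on 6 arrays and reached 8.87 on WT 38, with a difference of -0.02, or 0.05 without WT 38. WT 38 was thus the highest array on 2 of the 3 probe sets, and the sign of the difference without it was not shared by all 3. With the mean of its probe sets, Shank2 had a difference of -0.07. Shank1 (-0.05, SE 0.078) and Shank3 (-0.0070, SE 0.050) were also highest on WT 38, and both turned positive without it, at 0.04 each.

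**Figure D3:**
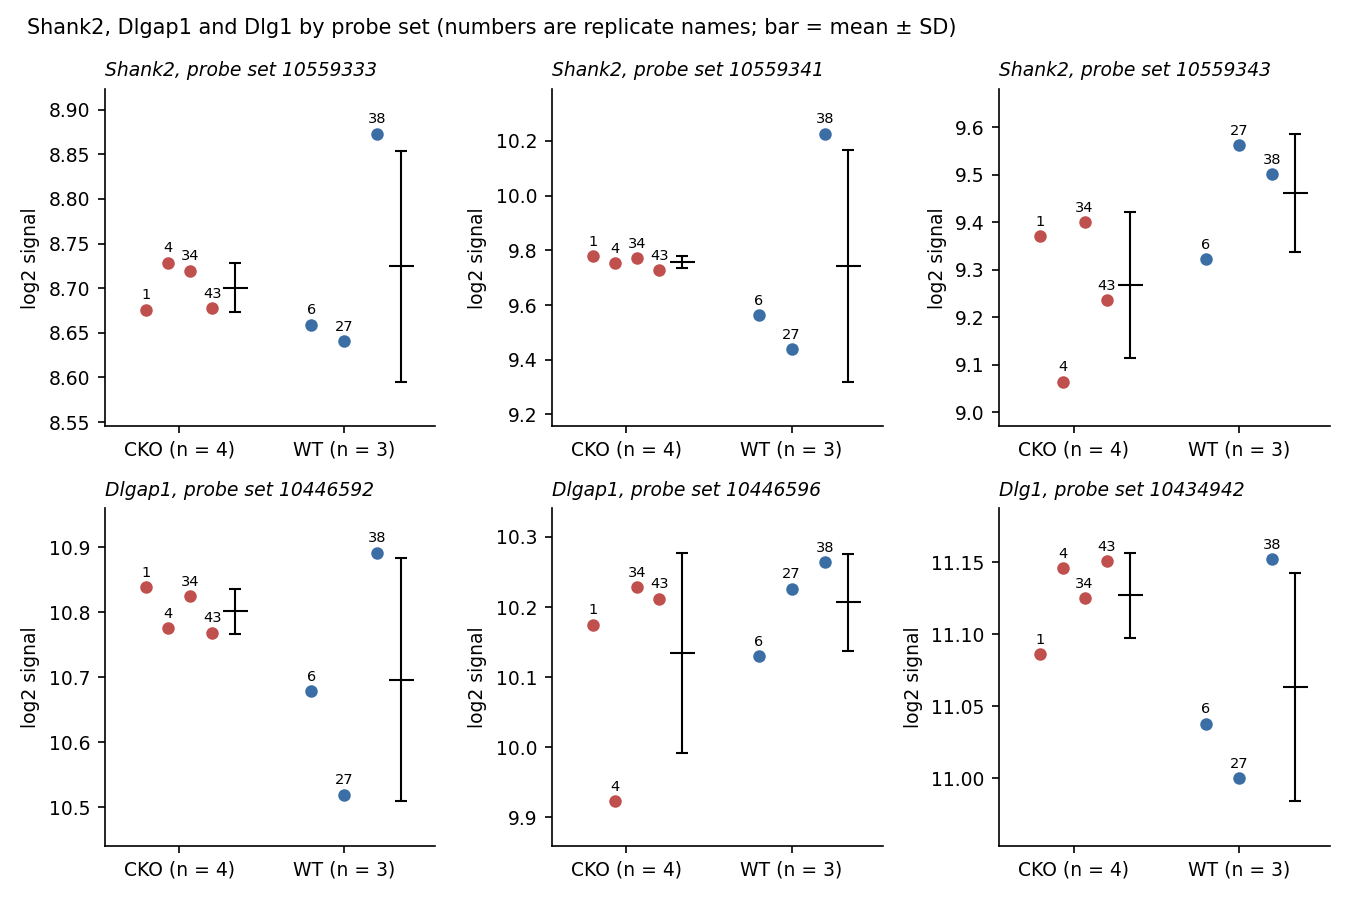
Log2 signal on each array (points, with the replicate's number) and mean ± SD by group for the 3 probe sets of Shank2, the 2 of Dlgap1 and the 1 of Dlg1. WT 38 is above the other WT arrays on 5 of the 6 panels, and the probe sets of 1 gene differ in how CKO lies against WT 6 and WT 27.

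Homer genes encode adaptors that tie Shank to metabotropic receptors and calcium stores. Homer2 (0.07, SE 0.051) and Homer3 (0.04, SE 0.041) were the 2 members that were lowest on WT 38, and without it their differences were 0.02 and 0.01. Homer1 was highest on WT 38, at 10.49 against 10.24 to 10.32 on the other 6 arrays. Its difference of -0.03 (SE 0.061) was 0.05 without WT 38. The second probe set of Homer2, 10565152, had a difference of -0.0043, and WT 38 was not its lowest array.

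The genes of spine actin and small GTPase signalling had overlapping groups in all 7 cases. Kalrn (probe set 10439138) encodes kalirin, a Rac exchange factor that enlarges spines. It was at 11.30, 11.23, 11.39 and 11.36 on CKO 1, 4, 34 and 43 and at 11.38, 11.34 and 11.68 on WT 6, 27 and 38. Only WT 38 lay outside the CKO range, and the difference went from -0.15 (SE 0.085) to -0.04 without it. Ppp1r9a, which encodes the actin-binding protein neurabin, had -0.10 (SE 0.062), and its relative Ppp1r9b, which encodes spinophilin, had 0.02 (SE 0.054).

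Baiap2, which encodes the actin regulator IRSp53, had a difference of -0.0051 (SE 0.040) with an interval from -0.10 to 0.09. Cnksr2, a scaffold of Ras signalling, had 0.0074 (SE 0.055). Of the Arf exchange factors, Iqsec1 had 0.03 (SE 0.063) and Iqsec2 had 0.11 (SE 0.077). Iqsec2 lay between 9.43 and 9.54 on 6 arrays and at 9.17 on WT 6, and without WT 6 its difference was 0.0052. As for Dlg4, 1 WT array below all others went with the positive difference.

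**Figure D4:**
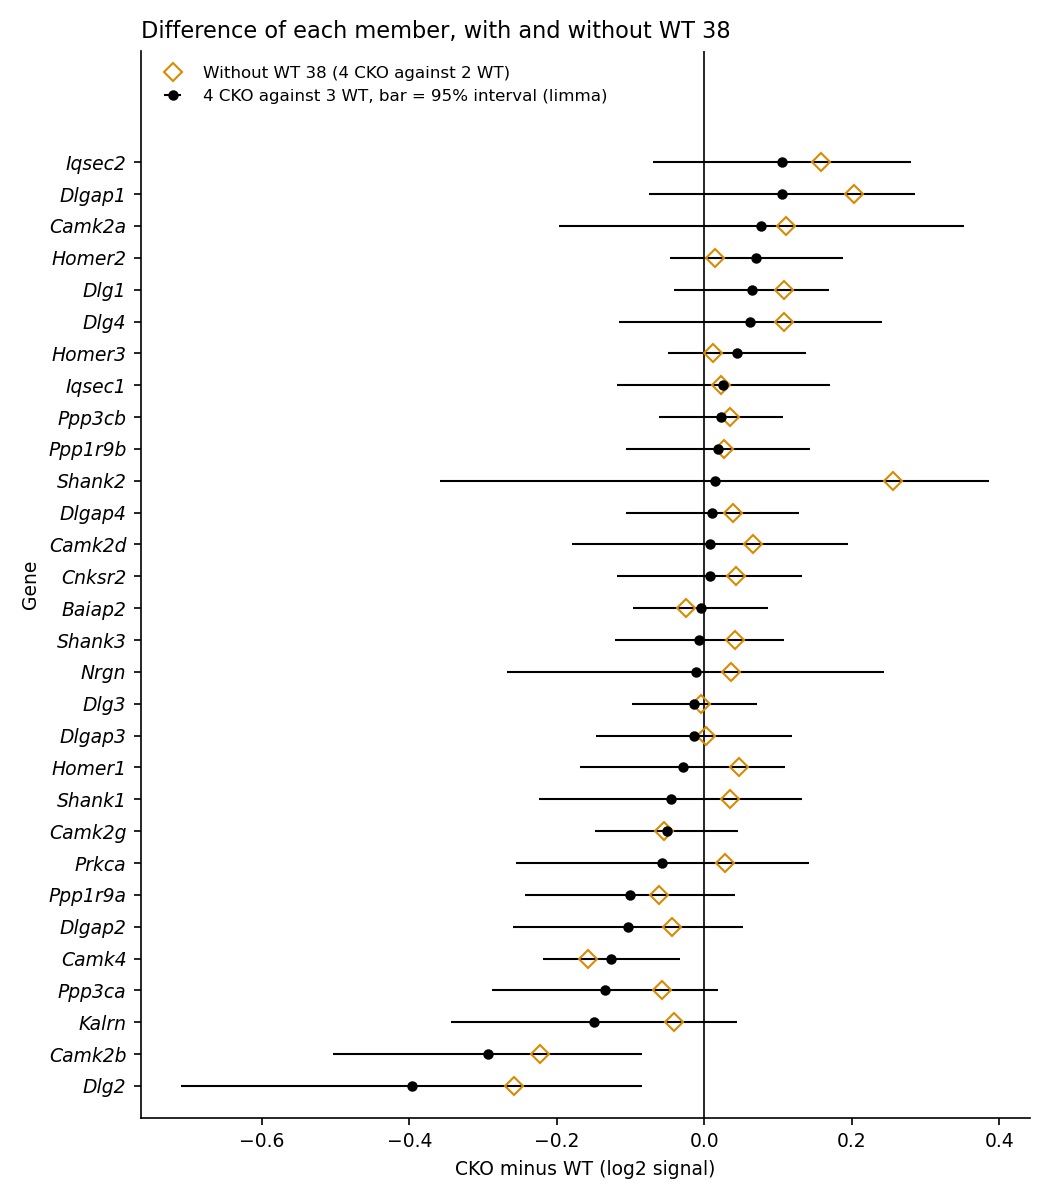
Difference between CKO and WT (log2 signal, horizontal) for each of the 30 genes, ordered by size, with its 95% interval from limma over all 7 arrays (black) and the difference without WT 38 (open diamonds). The intervals of Dlg2, Camk2b and Camk4 lie below 0. Of the 30 diamonds, 24 (80%) lie to the right of the black points, where the difference moved up for 42.5% of all genes.

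Among the members WT 38 was often the highest array and WT 6 often the lowest, though mostly not for the same members. WT 38 was the highest of the 7 arrays for 14 members (46.7%, against 15.7% of all genes). It was the lowest for 2 members (6.67%, against 30.8% of all genes). It lay above both other WT arrays for 18 members (60.0%, against 29.4% of all genes). Its median distance from the mean of these 2 arrays was 0.135 over the members and -0.024 over all genes. WT 6 was the lowest array for 10 members (33.3%, against 21.7% of all genes). It was the highest for 0 of the 30, where it was the highest for 18.3% of all genes. The SD was larger in WT than in CKO for 23 members (76.7%, against 69.2% of all genes).

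Leaving WT 38 out moved the difference upward for 24 members (80%, against 42.5% of all genes). It turned the sign for 6 members (20%), and the share of all genes that turned was not counted. Negative differences went from 16 to 10 members, or 33.3%, where 46.9% of all genes were negative without it. The median went from -0.0060 to 0.03, and that of all genes from 0.014 to 0.0057. At an unadjusted p under 0.05 there were then 3 members higher, Shank2, Dlgap1 and Dlg1, where 5% of all genes were higher at that p. There was 1 lower, Camk4, where 5.9% of genes were lower. No member passed the adjustment without WT 38, where 0.00619% of genes did. Leaving out WT 6 instead moved the members the other way, to 22 negative differences and a median of -0.05. At an unadjusted p under 0.05 there were then 5 lower, Camk2b, Camk4, Dlg2, Ppp3ca and Shank1, and 0 higher with limma, none of them past the adjustment. Of all genes, 2.69% were lower and 3.9% higher at that p without WT 6, and 42.2% had a negative difference.

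Other gene lists also set WT 38 apart, and their part in these values was not tested. Relative to the mean of the 7 arrays, the members averaged 0.11 on WT 38, against -0.05 on WT 6, -0.0064 on WT 27 and -0.07 to 0.03 on the CKO arrays. The 9 cell division genes tested were all positive in CKO minus WT, where 9504 of all 16144 genes were. They averaged -0.16 on WT 38, against 0.0020 on WT 6, -0.06 on WT 27 and 0.0085 to 0.09 in CKO. The 8 radial glia genes averaged -0.16 on WT 38, against -0.03 and -0.02 on WT 6 and WT 27 and -0.04 to 0.13 in CKO. The 3 red blood cell genes tested averaged -0.75 on WT 38, where the other 6 arrays lay from -0.05 to 0.45. All 3 were lowest on WT 38, but by unlike amounts. Hbb-y was at 8.30 there against 9.77 to 10.97 on the other arrays, and Alas2 at 9.18 against 9.23 to 9.48. WT 38 thus had the highest mean of the members and the lowest means of the cell division and radial glia lists. It was the lowest array for 8 of the 9 cell division genes and 5 of the 8 radial glia genes, against 30.8% of all genes. The radial glia gene Fabp7 was highest on WT 38.

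A list of 7 neuronal maturation genes averaged 0.22 on WT 38, 0.21 on WT 27 and 0.05 on WT 6, and between -0.26 (CKO 4) and 0.0027 (CKO 1) in CKO. Of these 7 genes 5 lay lower in CKO, led by Nefl (-0.98, SE 0.274) and Nefm (-0.77, SE 0.130), which encode neurofilament subunits. The median over the 7 was -0.08, and Rbfox3 (0.07, SE 0.076) and Snap25 (0.02, SE 0.036) were positive. Without the 2 neurofilament genes, the 5 others averaged 0.10 on WT 38, 0.04 on WT 27, -0.06 on WT 6 and -0.05 to 0.02 in CKO, so the wider range of the full list came from Nefl and Nefm. CKO 4, the lowest array of the full list, was not the lowest for the mean of the 5 others, which was -0.03 there and lowest on WT 6. Among the members, CKO 4 was the lowest array for 7 (23.3%, against 10.4% of all genes), Camk2b and Dlg2 among them. The mean of the members was also lowest on CKO 4. The vesicular glutamate transporter gene Slc17a7 had a difference of -0.12 (SE 0.106), and 4 of 8 glutamatergic neuron genes were higher and 4 lower in CKO. These glutamatergic genes averaged 0.02 on WT 38, so that array did not stand apart for them.

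Most striatal and GABAergic neuron markers were higher in CKO, and their part in the members' values was not tested. The direction was not particular to them, as 9504 of all 16144 genes were higher. All genes tested were also higher in the lists for radial glia (8 genes, median 0.14), astrocytes (7, 0.10) and intermediate progenitors (5, 0.10). The same held for the oligodendrocyte lineage (5, 0.05) and meningeal (5, 0.22) lists. Of the marker lists, only neuronal maturation had more genes lower than higher. Of the striatal neuron genes, 8 of 8 tested were higher in CKO, with a median of 0.35. At an unadjusted p under 0.05 were 5 of them, against 4.17% of all genes higher at that p. The list averaged 0.21, -0.06, 0.41 and 0.14 on CKO 1, 4, 34 and 43 and -0.19, -0.37 and -0.15 on WT 6, 27 and 38, so every CKO array lay above every WT array. Of the GABAergic neuron genes, 6 of 7 were higher, with a median of 0.29. At an unadjusted p under 0.05 were 2 of them, against the same 4.17% of all genes. This list averaged 0.26, -0.23, 0.23 and 0.17 on the CKO arrays in that order and -0.09, -0.31 and -0.02 on the WT arrays, so CKO 4 lay among the WT arrays. No gene of the striatal or GABAergic list passed the adjustment with limma, the smallest adjusted p being 0.251.

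**Figure D5:**
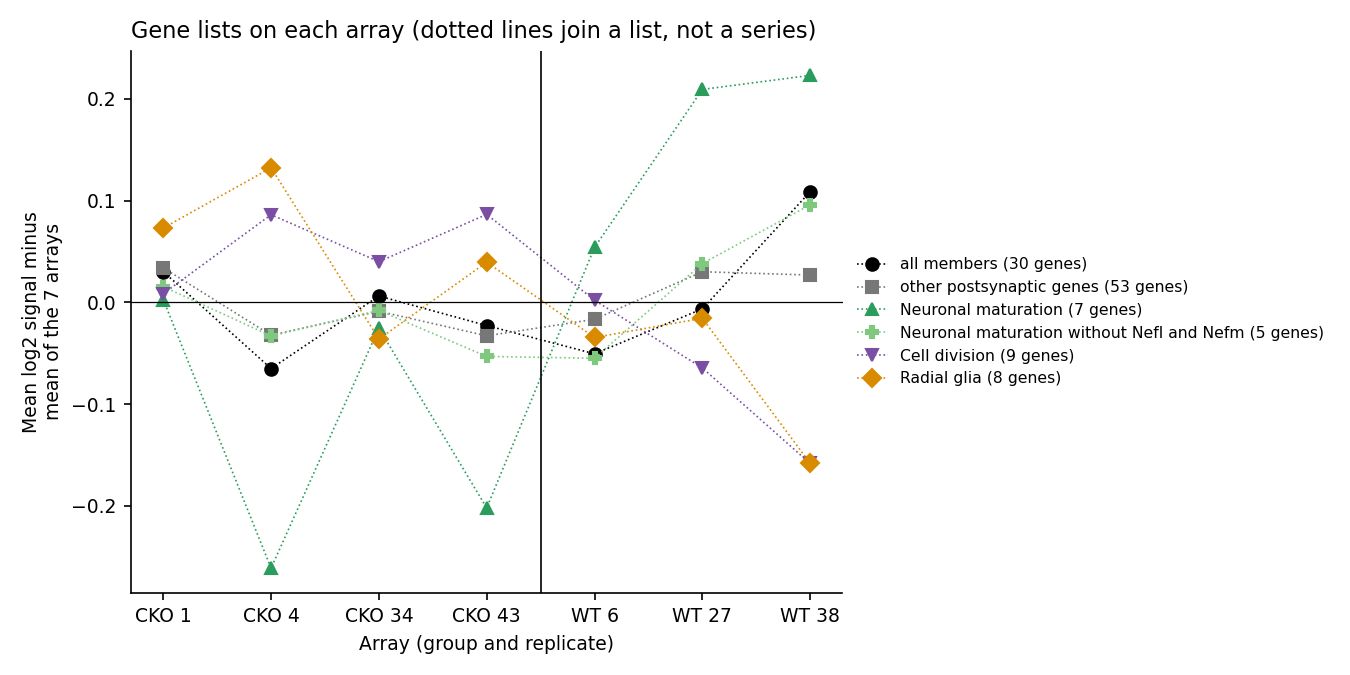
Mean log2 signal of 6 gene lists on each array, relative to the mean of the 7 arrays; a vertical line parts CKO from WT, and dotted lines only join the points of a list. The 30 members are highest on WT 38 (0.11) and lowest on CKO 4 (-0.07), while cell division and radial glia genes are lowest on WT 38 (-0.16 each).

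Of 60 other postsynaptic genes listed, 53 were tested and 0 passed the adjustment with limma, 24 higher and 29 lower in CKO. The median was -0.01, against 0.014 over all genes. Of all genes 41.1% were lower. At an unadjusted p under 0.05 there were 1 higher and 5 lower, where 4.17% of all genes were higher and 2.61% lower. The higher one was Camk2n1 (probe set 10509568), which encodes an inhibitor of CaMKII. It was at 10.61, 10.67, 10.61 and 10.67 on CKO 1, 4, 34 and 43 and at 10.47, 10.41 and 10.55 on WT 6, 27 and 38. All CKO arrays lay above all WT arrays, with a difference of 0.17 (SE 0.045, limma p 0.00598, adjusted p 0.711) that was 0.20 without WT 38.

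The second CaMKII inhibitor gene, Camk2n2, lay lower by a difference of -0.14 (SE 0.048) and had no overlap either. It was -0.13 without WT 38 and -0.19 within lot 2. The 2 inhibitor genes thus had opposite signs. Camkv, a kinase-like protein that binds calmodulin, had -0.14 (SE 0.054), the Arf6 exchange factor gene Psd3 had -0.17 (SE 0.064) and the calcium sensor gene Hpcal4 had -0.20 (SE 0.080). Tanc2, a scaffold that binds PSD-95, had -0.21 (SE 0.086) and was named after its value was seen. Next among the higher ones were Pcp4, a calmodulin-binding peptide, with 0.09 (SE 0.042), and the actin regulators Abi1 (0.07, SE 0.036) and Wasf1 (0.09, SE 0.052). Of these 53 genes 12 were highest and 8 lowest on WT 38, where 15.7% of all genes were highest and 30.8% lowest.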

How the data were processed

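The values deposited by the authors are RMA log2 signals. Affymetrix Expression Console made them, per the submitters' processing notes, with no version stated in the labels used. RNA integrity was 10 and input 0.2 µg for each of the 7 arrays, per the labels. The platform annotation paired 21786 of 35468 probe sets with a single symbol, and 21695 of these matched RefSeq (GRCm38.p6) by Entrez identifier. Probe sets averaging below the 25th percentile (6.84) were left out and the brightest stood for each gene, which left 16144. CKO was compared with WT with limma 3.58.1 (lmFit, eBayes) in R 4.3.3, with no covariate, and Benjamini-Hochberg adjustment over all genes at 0.05. Errors beside differences are limma's standard errors, and p-values of genes are two-sided and come from limma. The fit was tested on simulated data. Of 67 genes given a log2 change of 0.3, 33 (49.3%) were recovered at an adjusted p of 0.05, and 10 of all 166 calls were false. The noise was drawn independently for each array, so shifts shared by many genes on 1 array were not simulated. Array lots were read from a stretch that some array identifiers share, which may not mark a processing batch. Lot 1 held CKO 1 and CKO 4, lot 2 held CKO 34, CKO 43, WT 27 and WT 38, and lot 3 held WT 6. The identifier of WT 6 also shares a later stretch with those of lot 2, so giving it a lot of its own was a choice. With lot as a fixed block, only lot 2 holds both groups and sets the difference. The number of arrays limits the precision. Members and lists were chosen with earlier results of these data known. Full values are given for members without overlap or with an unadjusted p under 0.05, and other members shown array by array were chosen after their values were seen. From the other postsynaptic genes, the 4 smallest p in each direction are named. Lists are described by counts and medians, with no list test. Alternatives were a second quantile normalization, 2 other filters, averaging of probe sets, a trended robust prior, array weights, array lot as a fixed or random block and alone (lot 2), a threshold of 0.1 and leaving out each array. Figures were drawn with matplotlib 3.10.9.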

Additional observations from a re-analysis of the deposited data

Results flagged for a closer look

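In a group of 4 arrays, 1 array was set apart when its gap to the next, as a share of the group's range, exceeded Dixon's critical value at 95%, which chance does for about 1 in 20 groups. Of 40 values examined in the CKO group, 2 were set apart. Dlg4 was at 12.16 on CKO 1 and at 12.13 on each of the 3 other CKO arrays, a gap far smaller than the spread between WT arrays. Camkv was at 9.97 on CKO 4 and between 10.14 and 10.15 on the others. The WT group, with 3 arrays, was not examined in this way.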

How the results depend on the processing

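The number of members past an adjusted p of 0.05 was 0 under all 16 other fits and at a threshold of 0.1, with limma in each case, while 3 members had an unadjusted p under 0.05 over all arrays. The smallest adjusted p of a member in any fit was 0.266. Over the fits that left out 1 array, negative differences ran from 10 (without WT 38) to 22 (without WT 6), members lower at an unadjusted p under 0.05 from 1 (without WT 38) to 5 (without WT 6), members higher at that p from 0 to 3 (without WT 38), and the median difference from -0.046 to 0.027. Members lower at that p numbered 1 with array weights and 1 within lot 2, where fewer arrays were fitted; the cause was not tested. With lot as a fixed block or within lot 2 the median was -0.059 and 22 of the 30 differences were negative, where 53.6% of all genes were negative. Of Camk2b, Camk4 and Dlg2, Camk2b alone stayed under an unadjusted p of 0.05 in both (limma p 0.0416 and 0.0338), and Camk4 alone with array weights (limma p 0.0122). In all, 12 members kept their sign under every fit, among them Camk2b, Camk4, Dlg2, Dlg1 and Dlgap1, and 17 changed it when 1 array was left out. Dlgap1 kept it only narrowly, falling from 0.11 to 0.016 with the mean of probe sets and to 0.017 without WT 27. Its second probe set, 10446596, had the other sign (-0.07 over all arrays). With lot as a fixed block or within lot 2, which give each gene the same difference, the sign turned for Baiap2 (0.018), Camk2a (-0.091), Dlg4 (-0.052), Dlgap4 (-0.055), Iqsec1 (-0.080), Iqsec2 (-0.034), Ppp1r9b (-0.053) and Shank2 (-0.084). With array weights it turned for Homer1 (0.0016), Iqsec1 (-0.021), Nrgn (0.0011), Ppp1r9b (-0.0039) and Shank3 (0.0031), and with the mean of probe sets for Shank2 (-0.068). With 1 array left out, the difference ran from -0.024 to 0.015 for Baiap2, -0.040 to 0.15 for Camk2a, -0.089 to 0.066 for Camk2d, -0.028 to 0.043 for Cnksr2, -0.038 to 0.00040 for Dlg3, -0.046 to 0.12 for Dlg4, -0.070 to 0.026 for Dlgap3, -0.050 to 0.044 for Dlgap4 and -0.077 to 0.046 for Homer1. It ran from -0.0065 to 0.071 for Iqsec1, -0.11 to 0.067 for Nrgn, -0.035 to 0.065 for Ppp1r9b, -0.0011 to 0.036 for Ppp3cb, -0.12 to 0.028 for Prkca, -0.14 to 0.035 for Shank1, -0.14 to 0.26 for Shank2 and -0.046 to 0.042 for Shank3. No paired analysis was done, because the labels name no pairs and samples of different groups share no replicate number. Whether any samples were paired, such as by litter, is not known here.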
